A study of Mus musculus with 6 samples.

Results

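The genes described here are 10 components of the circadian clock, namely Bhlhe40, Bhlhe41, Per1, Per2, Cry1, Cry2, Arntl (also called Bmal1), Clock, Nr1d1 and Dbp, out of 19938 genes measured under a single symbol. They were taken by gene symbol, each with its brightest probe set, and all 10 had exactly 1 probe set. The list was chosen by the measured Lxn-/- against WT differences of these same arrays (that of Bhlhe40 in particular) together with membership of the clock, so the differences of the 10 genes are given as a description without a test. The cells were LT-HSCs, the long-term hematopoietic stem cells that sustain blood formation, sorted from marrow as negative for lineage markers, CD34 and a marker spelled Flt2 in the labels and positive for Sca1 and c-Kit. All mice were female, of strain C57BL/6 and 8 to 12 weeks old, and were either wild type (WT) with an intact latexin gene or Lxn-/-, in which exons 2 to 4 of latexin are deleted and the protein is lacking. There were 3 pools per genotype, each of about 100000 cells from 10 to 20 mice and each measured on 1 Affymetrix mouse Gene ST array. The labels give no hour of harvest and no other treatment, and the label of the Lxn-/- mice does not say whether the deletion was limited to blood cells. Values are log2 expression values normalized by robust multi-array average (RMA), so a difference of 1 stands for a doubling. Errors are standard deviations (SD) over 3 pools or, for a difference, limma's moderated standard error (SE).

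The clock is a loop of transcription and repression that runs in most cells. CLOCK and ARNTL bind together to E-boxes and switch on the Period and Cryptochrome genes, whose proteins return to block them. BHLHE40 and BHLHE41 (also called DEC1 and DEC2) compete for the same E-boxes as repressors. A side loop runs through NR1D1 (REV-ERB alpha), which represses Arntl from ROR elements, and Dbp carries the rhythm to output genes through D-boxes. Genes driven from E-boxes and D-boxes and genes driven from ROR elements reach their peaks at opposite times of day, and the release of stem cells from marrow is known to follow a daily rhythm. Per1 and Bhlhe40 are also induced within minutes to hours by many stimuli, independently of the time of day.

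The sequences just upstream of the annotated starts are shown to let the elements through which clock genes are known to be driven be seen in the genes that hold them there. RefSeq promoter windows (build GRCm38.p6) were found for 8 of the 10 genes, and not for Bhlhe40 and Per2. The 250 bases before each start were searched on both strands for the E-box CACGTG, the D-box TTANGTAA, the core of the ROR element TAGGTCA and the cAMP response element TGACGTCA. A match describes the letters and is not evidence of a bound site. E-boxes were found upstream of 3 of the 8 genes, Bhlhe41, Per1 and Cry1, against 6.02% of 32851 promoter windows, and none of the other motifs was found there. No E-box or D-box lay in these windows of Nr1d1, Nr1d2, Dbp and Usp2 and no ROR core in those of Arntl, Clock and Cry1, so the arms of the clock used below rest on textbook knowledge and not on these matches. In the wider clock list (other clock genes, described below) 4 of 29 genes with a window held an E-box, among them Ciart with 3 and Tef with 1 in each of its 2 windows. D-boxes were found for 3 of the 29, among them Per3 with 2, against 2.06% of all windows, and ROR element cores for 2 of the 29, one of them Nfil3, against 2.23%. A gene was counted if any of its windows held the motif, and some genes had several windows. These counts of genes are thus not strictly comparable with the shares of single windows. Each line gives 100 bases, 5′ to 3′ on the strand of the gene, with the motif in capitals (an E-box in the first 5, D-boxes in Per3, and in Nfil3 the ROR core as TGACCTA, its form on the other strand).
Bhlhe41: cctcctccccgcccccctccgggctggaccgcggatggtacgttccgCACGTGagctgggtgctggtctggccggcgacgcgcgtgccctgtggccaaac
Per1: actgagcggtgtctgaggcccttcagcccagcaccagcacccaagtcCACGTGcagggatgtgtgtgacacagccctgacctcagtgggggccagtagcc
Cry1: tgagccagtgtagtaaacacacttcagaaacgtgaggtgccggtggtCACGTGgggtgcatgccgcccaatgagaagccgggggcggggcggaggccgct
Ciart: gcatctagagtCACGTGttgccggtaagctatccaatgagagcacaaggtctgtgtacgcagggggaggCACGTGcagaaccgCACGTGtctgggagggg
Tef: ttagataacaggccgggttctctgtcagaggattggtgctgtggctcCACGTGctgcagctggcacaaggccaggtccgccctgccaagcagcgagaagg
Per3: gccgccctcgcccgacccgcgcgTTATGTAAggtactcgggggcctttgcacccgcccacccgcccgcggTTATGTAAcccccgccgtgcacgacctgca
Nfil3: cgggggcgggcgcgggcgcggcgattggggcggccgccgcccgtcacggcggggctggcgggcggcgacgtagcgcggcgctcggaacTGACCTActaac
These stretches lie at chr6:145865521-145865620 (minus strand) for Bhlhe41, chr11:69098736-69098835 (plus strand, the first of 2 windows of the gene) for Per1 and chr10:85185062-85185161 (minus strand) for Cry1. They lie at chr3:95882256-95882355 (minus strand) for Ciart, chr15:81802499-81802598 (plus strand, the first of 2 windows) for Tef, chr4:151044794-151044893 (minus strand) for Per3 and chr13:52981040-52981139 (minus strand) for Nfil3. Counted from the annotated start, the E-box began at position -153 in Bhlhe41, -166 in Per1 and -60 in Cry1.

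The paralogous repressors Bhlhe40 and Bhlhe41 differed between the genotypes in opposite directions. Bhlhe40 had log2 values of 9.13, 8.79 and 8.71 in WT and of 9.36, 9.43 and 9.26 in Lxn-/-, here and below in the order of replicates 1, 2 and 3. All Lxn-/- pools lay above all WT pools, and the WT pools were the more scattered. The WT mean was 8.87 ± 0.22 (SD, n = 3), the Lxn-/- mean 9.35 ± 0.08 (SD, n = 3), and the gap 0.48 (SE 0.11), or 1.39-fold. Bhlhe41, a repressor of the same E-boxes, had 8.47, 7.79 and 7.87 in WT and 7.65, 7.51 and 7.66 in Lxn-/-. All Lxn-/- pools lay below all WT pools, and WT replicate 1 stood above the rest. The difference was -0.44 (SE 0.17), and -0.22 without WT replicate 1. In sorted bulk samples a lower share of cells with a transcript and less transcript per cell cannot be told apart.

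Among the Period and Cryptochrome genes, which encode the repressors of CLOCK and ARNTL, Per1 had the widest scatter. It had 11.27, 10.92 and 10.52 in WT and 11.31, 11.21 and 11.49 in Lxn-/-. The genotypes overlapped, since WT replicate 1 lay within the Lxn-/- values, and WT replicate 3 was the lowest pool. Per1 differed by 0.43 (SE 0.18) with means of 10.90 ± 0.38 (SD, n = 3) and 11.33 ± 0.14 (SD, n = 3), and by 0.24 without WT replicate 3. Per2, the other Period gene of the group, had 9.49, 9.47 and 9.40 in WT and 9.55, 9.52 and 9.47 in Lxn-/-. Its values were close together and overlapped, with a difference of 0.06 (SE 0.065, 95% confidence interval -0.09 to 0.21).

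Cry1 had 8.85, 9.04 and 8.79 in WT and 9.04, 8.94 and 8.88 in Lxn-/-, which overlapped, with a difference of 0.06 (SE 0.086). Cry2, the second Cryptochrome, had 9.47, 9.37 and 9.36 in WT and 9.64, 9.54 and 9.44 in Lxn-/-. The Cry2 values overlapped only at Lxn-/- replicate 3, which lay below WT replicate 1. The Cry2 difference was 0.14 (SE 0.076, 95% confidence interval -0.03 to 0.32).

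The activators overlapped between genotypes. Clock had 9.43, 9.41 and 9.44 in WT and 9.32, 9.43 and 9.42 in Lxn-/-, and only Lxn-/- replicate 1 stood slightly below the other pools. The difference for Clock was -0.04 (SE 0.065, 95% confidence interval -0.19 to 0.11). Arntl, its partner, had 8.98, 8.61 and 8.94 in WT and 8.76, 8.86 and 8.66 in Lxn-/-. The lowest and the highest Arntl value both belonged to WT, and the difference of -0.09 (SE 0.11) became 0.04 when limma weighted the arrays by their quality, and -0.20 (SE 0.088) without WT replicate 2.

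The repressor of the side loop, Nr1d1, had 9.37, 9.44 and 9.65 in WT and 9.42, 9.80 and 9.50 in Lxn-/-. The genotypes overlapped, Lxn-/- replicate 2 was highest, and the difference of 0.09 (SE 0.12) was -0.02 without that pool. Dbp, the D-box activator, had 9.16, 9.07 and 9.40 in WT and 8.89, 9.19 and 9.10 in Lxn-/-. WT replicate 3 was highest and Lxn-/- replicate 1 lowest for Dbp, and the difference of -0.15 (SE 0.11) was -0.05 without WT replicate 3.

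**Figure D1:**
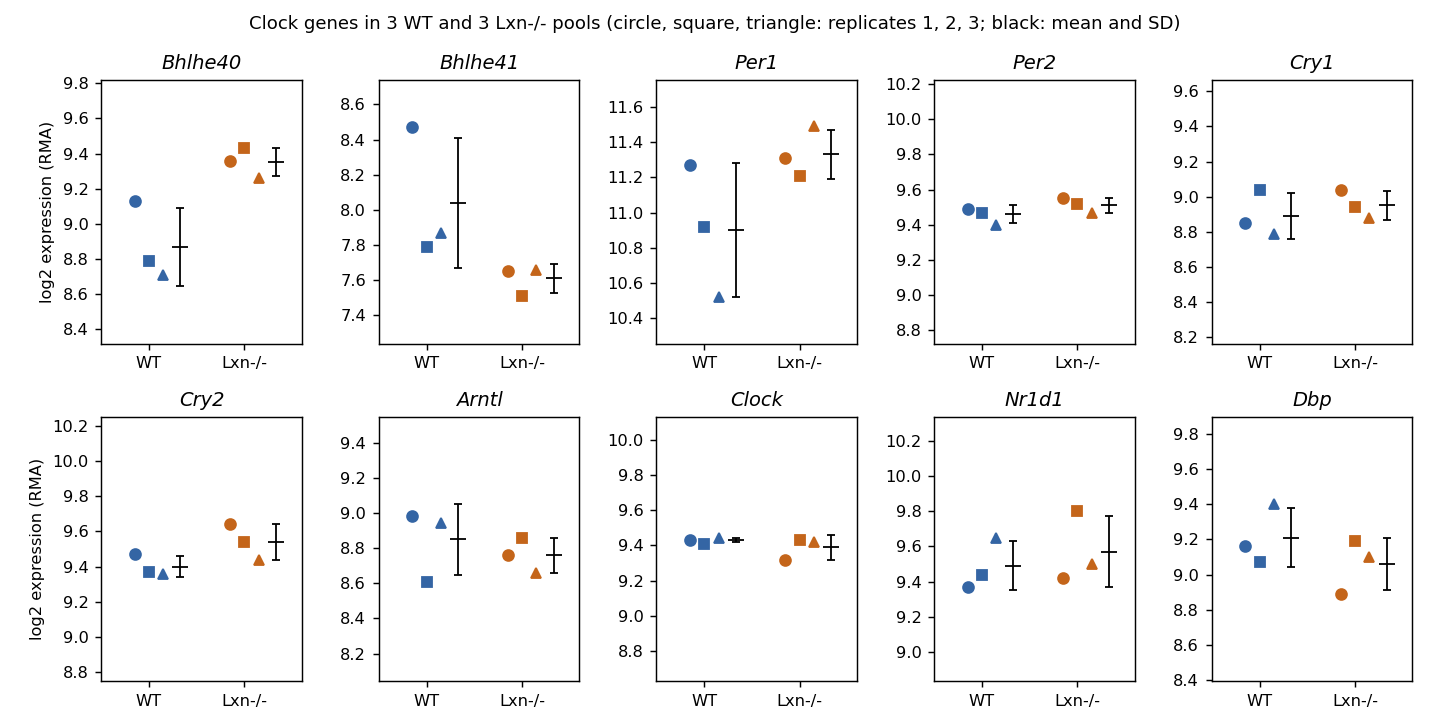
Each panel plots 1 clock gene, with log2 RMA expression on the vertical axis (a span of 1.5 log2 units in every panel) and the 3 WT (blue) and 3 Lxn-/- (orange) pools as points; black marks show the mean and SD of 3 pools. Bhlhe40 and Bhlhe41 do not overlap between genotypes, in opposite directions, while Per2 and Clock stay within 0.15 and 0.13 over all 6 pools.

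Of the 10 genes, 6 were higher and 4 lower in Lxn-/-, with a median difference of 0.06, against 44.0% higher and a median of -0.013 over all genes. The pools of the genotypes did not overlap for 2 of the 10, where 8.98% of all 23410 probe sets tested did not overlap. No member passed an adjusted p of 0.05 in limma with Benjamini-Hochberg adjustment, nor did any probe set (0%), and at an unadjusted p under 0.05 there were 3 members, Bhlhe40, Bhlhe41 and Per1, where 3.9% of all probe sets were under it. By direction these were 2 members higher in Lxn-/-, against 1.47% of all probe sets, and 1 lower, against 2.43%. Because the genes were listed with this contrast known, nothing is read from these counts. The spread between pools of 1 genotype was uneven among the clock genes. The SD pooled over genotypes was 0.285 for Per1 and 0.269 for Bhlhe41, at percentiles 96.4 and 95.8 of all genes, and 0.173 for Nr1d1, 0.168 for Bhlhe40, 0.162 for Dbp and 0.159 for Arntl, all at percentiles from 81.3 to 85.0. For Clock and Per2 it was 0.0472 and 0.0466, at percentiles 7.97 and 7.68, where the median gene had 0.102.

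Latexin itself had 8.99, 9.09 and 9.55 in WT and 8.66, 8.78 and 8.78 in Lxn-/-, lower in all Lxn-/- pools. Its difference was -0.47 (SE 0.14), and the Lxn-/- mean of 8.74 stayed above the dim signal level described next. The position of its probes relative to the deleted exons is not known here, so the lower values are a limited check of the labels. All 10 clock genes had means above 6.93, the 95th percentile of 1205 odorant and vomeronasal receptor probe sets, a measure of dim signal. All 12 measured LT-HSC markers were above it too, Procr, Mecom and Fgd5 among them, and so were most markers of other blood cells, so the arrays do not show that the pools were free of such cells.

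The wider clock list held further clock genes, kinases and ubiquitin ligases, cofactors and output genes. Of its 42 genes 34 were measured, none of them among the 10. In limma 0 of the 34 passed an adjusted p of 0.05 and 0 had an unadjusted p under 0.05, where 3.9% of all probe sets were under it. The latter count was 2 with array weights, without WT replicate 1 or without Lxn-/- replicate 2. Of all 23410 probe sets 1807, 1556 and 1022 were under it in these settings, against 914 in the main fit. In Lxn-/- 20 of the 34 genes were higher and 14 lower, with a median difference of 0.01. Npas2, which can stand in for CLOCK, was not analysed here. Among repressors, Per3, the remaining Period gene, had 9.68, 9.64 and 9.32 in WT and 9.73, 9.54 and 9.73 in Lxn-/-, overlapping, with a difference of 0.12 (SE 0.11). Ciart, which represses CLOCK and ARNTL and carries the 3 E-boxes shown above, differed by 0.10 (SE 0.11). Nr1d2, the paralog of Nr1d1, differed by 0.14 (SE 0.095) and Rora, a nuclear receptor that activates from ROR elements, by 0.06 (SE 0.090). Single pools moved these values: Per3 was 0.01 without WT replicate 3, Ciart 0.23 without Lxn-/- replicate 2 and 0.03 without Lxn-/- replicate 1. Nr1d2 was 0.22 without WT replicate 1 and 0.08 without Lxn-/- replicate 1, and Rora 0.13 without Lxn-/- replicate 3 and 0.01 without WT replicate 3.

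Among D-box factors, Hlf, a relative of Dbp that also marks hematopoietic stem cells, had 12.18, 12.15 and 12.14 in WT and 12.12, 12.06 and 12.30 in Lxn-/-. Hlf was thus level between genotypes, with a difference of 0.01 (SE 0.079) whose sign changed with the scaling. Tef, the third factor of that family, did not overlap between genotypes but differed by 0.06 (SE 0.060), and Nfil3, the repressor that competes for D-boxes, differed by 0.13 (SE 0.13), by 0.24 without WT replicate 2 and by 0.01 without WT replicate 3. The pools also did not overlap for Gsk3b, a clock kinase gene (0.07, SE 0.064), so that 2 of the 34 genes did not overlap, against 8.98% of all probe sets. The ends of the list were 2 of its output genes, Lonrf3 at 0.34 (SE 0.16) and the cell cycle kinase gene Wee1 at -0.12 (SE 0.072). Gsk3b, Lonrf3 and Wee1 were singled out after their values were seen.

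**Figure D2:**
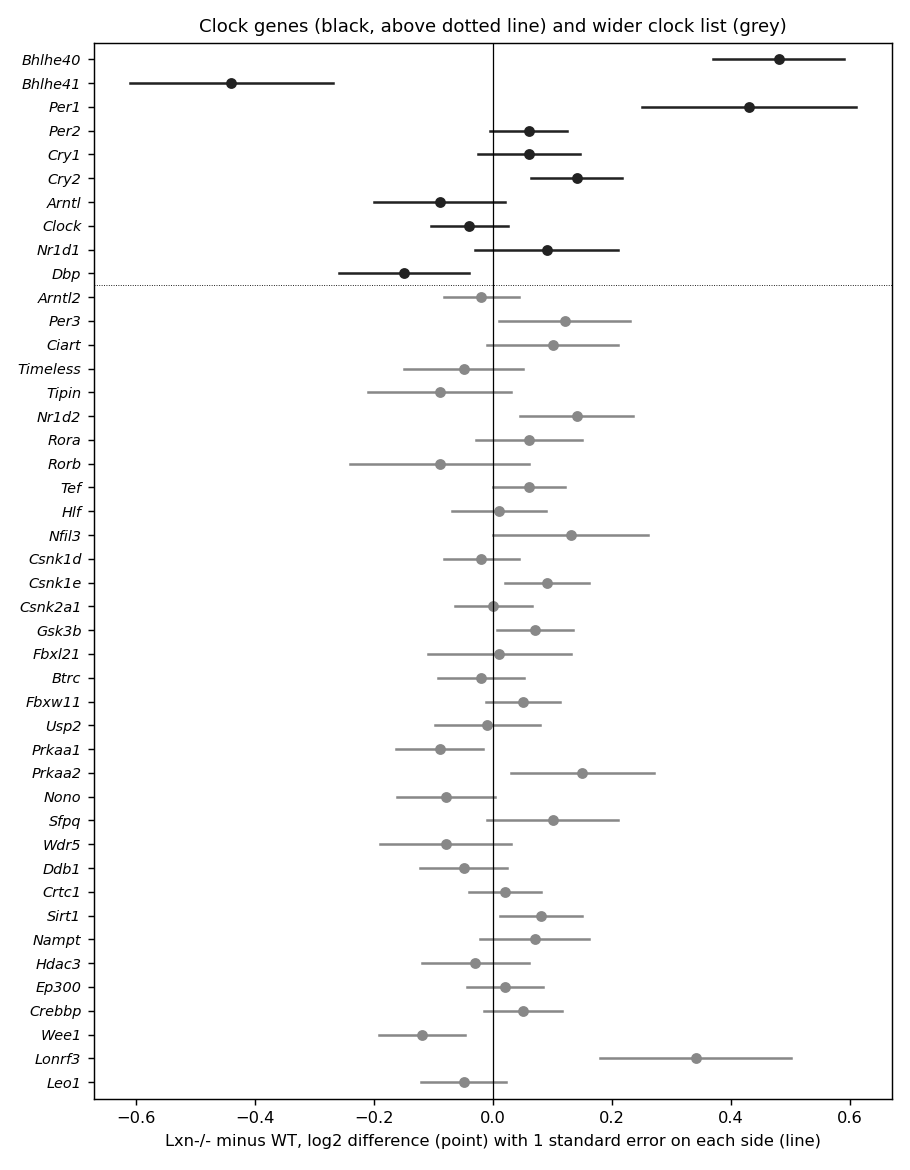
The horizontal axis gives the log2 difference, Lxn-/- minus WT, for the 10 clock genes (black) and the 34 genes of the wider clock list (grey), which includes cofactors and output genes, with lines of 1 limma SE on each side. Bhlhe40 at 0.48, Per1 at 0.43 and Bhlhe41 at -0.44 lie farthest from 0, and the others, apart from Lonrf3 at 0.34, lie between -0.15 and 0.15.

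Whether the pools were taken at different phases of the clock was examined by the 2 arms of the loop, since the labels give no harvest hour. A difference in phase was looked for as a move of the evening arm (Per1, Per2, Per3, Nr1d1, Nr1d2, Dbp, Tef, Ciart and Usp2, driven from E-boxes and D-boxes) against the morning arm (Arntl, Clock, Nfil3 and Cry1, driven from ROR elements, although Cry1 also has the E-box shown). The mean of an arm treats its genes as moving together, so it can miss a difference in phase that moves them apart. The evening arm deviated from its mean over 6 pools by 0.03, -0.06 and -0.11 in WT and by 0.05, 0.02 and 0.07 in Lxn-/-. The morning arm deviated by 0.02, 0.02 and -0.07 in WT and by 0.01, 0.00 and 0.02 in Lxn-/-. Both arms were lowest in the same pool, WT replicate 3, but their genes did not move together there. In the morning arm Nfil3 (-0.31) and Cry1 (-0.13) were low, while Arntl (0.14) and Clock (0.03) were not. In the evening arm Per1 was lowest at -0.60, while Dbp (0.26) and Nr1d1 (0.11) were above their means and the others were not. The evening arm minus the morning arm was 0.00, -0.08 and -0.04 in WT and 0.04, 0.03 and 0.05 in Lxn-/-. Every Lxn-/- pool thus lay above every WT pool in that difference, which spanned 0.13 from the lowest to the highest pool. It includes genes of the list that was chosen on this contrast. Per1 had the widest deviations of either arm, with 0.16, -0.20 and -0.60 in WT and 0.19, 0.09 and 0.37 in Lxn-/-. Taken singly, 1 of the 9 evening genes, Tef, did not overlap between genotypes, against 8.98% of all probe sets. An evening arm without Per1 was not computed, so the separation is not shown for the arm as a whole.

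Within the evening arm the order of the pools differed from gene to gene. WT replicate 3 held the lowest Per1, Per2, Per3 and Usp2 and the highest Dbp. Lxn-/- replicate 1 held the highest Per2, Per3, Nr1d2, Tef and Ciart and the lowest Dbp. In Lxn-/- replicate 2 Nr1d1 was highest and Ciart lowest. Of the 4 pairs known to oscillate in opposite phase, Arntl and Dbp had a Pearson r of 0.58 over 6 pools (exact permutation p = 0.242, adjusted over 8 pairs p = 0.578, Spearman rho 0.66, exact p = 0.175), and 0.71 over the 4 pools left without WT replicates 1 and 2. Arntl and Nr1d1 had r = 0.23 (exact p = 0.674, rho -0.09, exact p = 0.919), Arntl and Per1 r = -0.28 (exact p = 0.604, rho -0.20, exact p = 0.714) and Arntl and Per2 r = -0.16 (exact p = 0.758, rho 0.03, exact p = 1), each with an adjusted p of 0.758. Without WT replicates 1 and 2 these were 0.64, -0.90 and -0.44. For deviations from the genotype means r was 0.51 with Dbp, 0.36 with Nr1d1, -0.09 with Per1 and 0.03 with Per2.

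Of the pairs on the same side of the loop, Bhlhe40 and Per1 had r = 0.84 (exact p = 0.0319, adjusted p = 0.256, rho 0.60, exact p = 0.242), and -0.29 without WT replicates 2 and 3, on which the relation rested. Per1 and Per2 had r = 0.72 (exact p = 0.131, adjusted p = 0.522, rho 0.37, exact p = 0.497), and -0.60 without the same pools. Nr1d1 and Dbp had r = 0.55 (exact p = 0.289, adjusted p = 0.578, rho 0.60, exact p = 0.242), and -0.07 without WT replicate 3 and Lxn-/- replicate 2, but 0.84 for the deviations of the pools from their genotype means. Bhlhe40 and Bhlhe41 had r = -0.32 (exact p = 0.599, adjusted p = 0.758, rho -0.83, exact p = 0.0583), and -0.91 without WT replicates 2 and 3, but 0.81 for the deviations. Those of the other same-side pairs were 0.69 for Bhlhe40 and Per1 and 0.53 for Per1 and Per2. None of the 8 pairs passed an adjusted p of 0.05 by Pearson or Spearman in the exact permutation test, and 1, Bhlhe40 with Per1, was under 0.05 before adjustment by Pearson. Bhlhe40 and Per1 were both higher in Lxn-/- and belong to the list chosen with that contrast known. A positive r over the pools of both genotypes is thus partly built in, and nothing is read from its p-value. With 6 pools these values do not show that the genes vary independently.

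**Figure D3:**
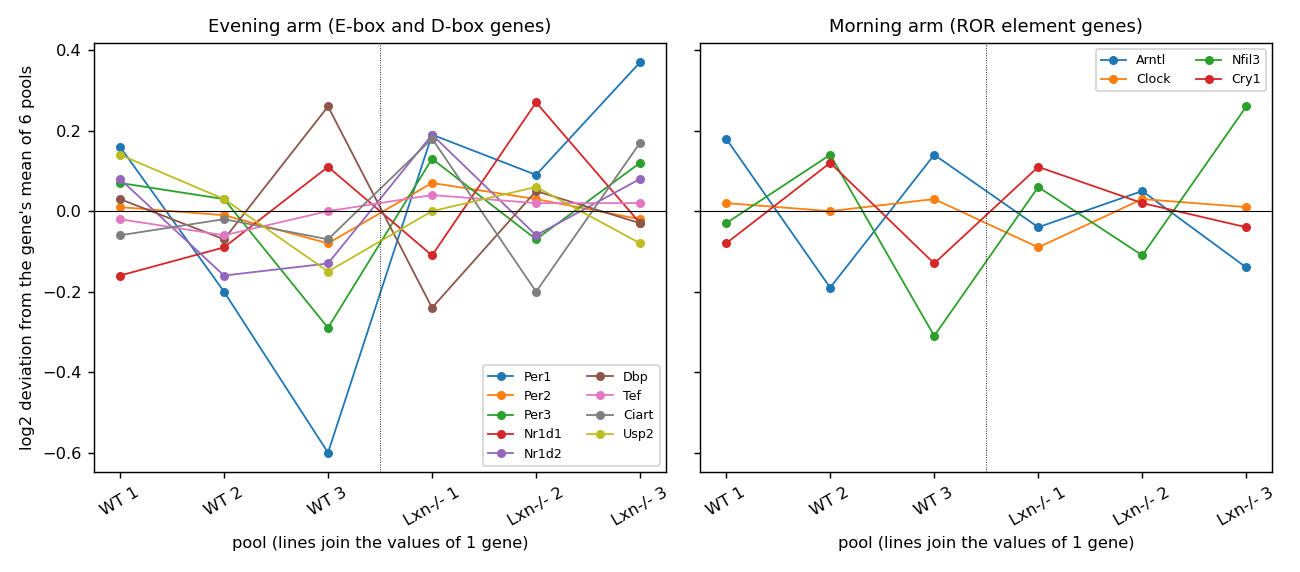
The vertical axis gives the log2 deviation of each gene from its mean over 6 pools, and the horizontal axis the pools, 3 WT to the left of the dotted line and 3 Lxn-/- to the right; lines join the values of 1 gene and imply no order of pools. In WT replicate 3 Per1 lies at -0.60 and Dbp at 0.26, both genes of the evening arm, and the mean of the morning arm lies at -0.07.

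Per1 followed the immediate early genes, the transcription factors and feedback inhibitors that cells switch on within minutes of a stimulus, pool by pool. The mean deviation of 25 such genes, Per1 not among them, was 0.12, -0.12 and -0.49 for WT and 0.13, 0.04 and 0.33 for Lxn-/-. The order of the 6 pools was the same for Per1 (Spearman rho 1, exact permutation p = 0.00278, adjusted over 10 genes p = 0.0278). Pearson's r was 0.99 (exact permutation p = 0.00139, the smallest that 720 pairings allow, adjusted p = 0.0139). It was 0.99 for the 4 pools left without WT replicate 3 and Lxn-/- replicate 3, and 0.99 for deviations from the genotype means. Of the 25 genes 13 had r over 0.9 with Per1, or 52.0%, led by the transcription factor genes Atf3 (0.99) and Klf4 (0.98), against 1.99% of 13348 genes above the dim signal level. Myc, with r = -0.78, was the only one of the 25 below 0. This relation was computed after the values were seen, and Per1 belongs to the list chosen with the genotype contrast known. The p-values of the relation permute the pools of both genotypes together, and nothing is read from them.

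No other clock gene had an adjusted p under 0.05 with the immediate early mean, by Pearson or Spearman in the exact permutation test. Bhlhe40 had r = 0.79 with the immediate early mean (exact p = 0.0486, adjusted p = 0.243, rho 0.60, exact p = 0.242). It was 0.74 without the 2 farthest pools and 0.61 for deviations from the genotype means. Bhlhe40 was listed for its genotype difference, and 23 of the 25 immediate early genes were also higher in Lxn-/-. A positive r over both genotypes is thus partly built in, and nothing is read from its p-value. Bhlhe40 was highest in Lxn-/- replicate 2, whose immediate early mean was near the middle. Dbp had r = -0.68 (exact p = 0.135, adjusted p = 0.358, rho -0.54, exact p = 0.297), and -0.20 without the 2 farthest pools. Per2 had r = 0.67 (exact p = 0.143, adjusted p = 0.358, rho 0.37, exact p = 0.497), and the remaining 6 lay between -0.35 and 0.53 with adjusted p-values from 0.567 to 0.857 in the exact permutation test.

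**Figure D4:**
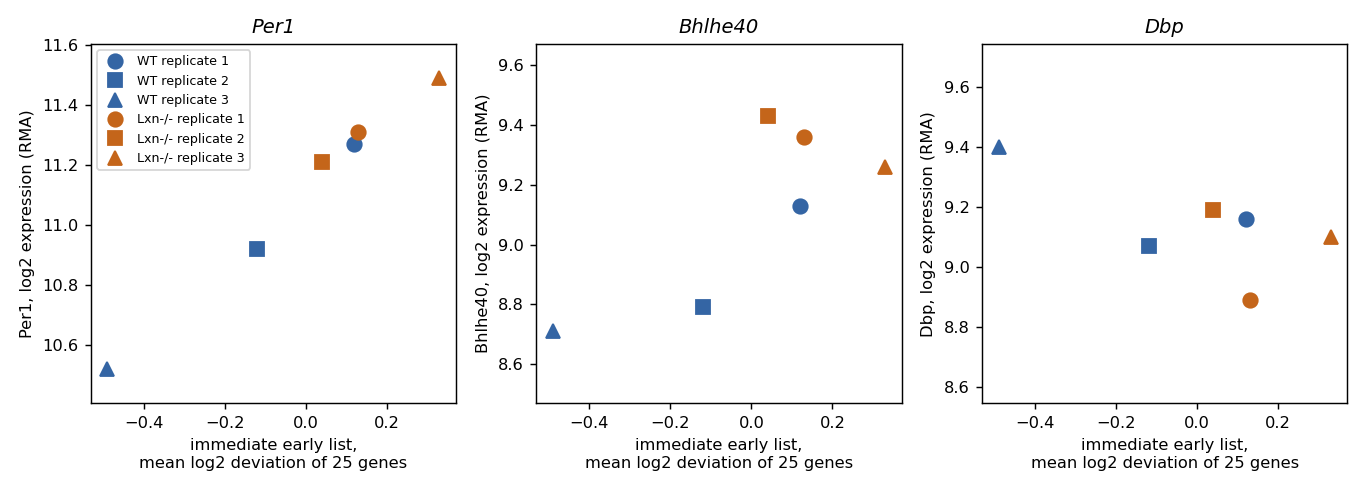
The horizontal axis gives the mean log2 deviation of 25 immediate early genes in each pool and the vertical axis the log2 expression of Per1, Bhlhe40 or Dbp, with WT pools in blue and Lxn-/- pools in orange. The Per1 points rise in one line from WT replicate 3 (-0.49, 10.52) to Lxn-/- replicate 3 (0.33, 11.49), while Bhlhe40 and Dbp scatter.

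The immediate early genes themselves were higher in Lxn-/- for 23 of 25, with a median difference of 0.29, where 44.0% of all genes were higher. Their mean overlapped between genotypes, with WT replicate 1 at 0.12, above Lxn-/- replicate 2 at 0.04, and WT replicate 3 lowest at -0.49. Since 13 of the 25 had r over 0.9 with Per1, they do not count as separate observations. None passed an adjusted p of 0.05 in limma, and 6 had an unadjusted p under 0.05, all higher, against 1.47% of all probe sets. The members of lowest p were Dusp2, which encodes a phosphatase of MAP kinases, at 0.38 (SE 0.10) and the matricellular protein gene Ccn1 at 0.37 (SE 0.11). Genes induced by glucocorticoids, hormones that also switch on Per1 and follow a daily rhythm, had a median of 0.09, with 8 of 10 higher. Among them Ddit4, an inhibitor of mTOR signalling, differed by 0.16 (SE 0.066) and the metallothionein gene Mt2 by -0.52 (SE 0.21). Genes induced by hypoxia, of which Bhlhe40 is also one, had a median of 0.01 with 7 of 13 higher. There Egln3, an oxygen sensor gene, differed by 0.19 (SE 0.13) and Adm, the gene of the peptide adrenomedullin, by -0.19 (SE 0.11). None of the genes of either list passed an adjusted p of 0.05 in limma. At an unadjusted p under 0.05 there were 2 of the 10 glucocorticoid genes, Ddit4 higher and Mt2 lower, and 0 of the 13 hypoxia genes. Of all probe sets 1.47% were under it and higher and 2.43% under it and lower.

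Markers of other blood cells also moved between the pools. Neutrophil markers (10 measured) deviated by 0.60, 0.10 and -1.21 in WT and by 0.34, -0.60 and 0.77 in Lxn-/-, and their mean level spanned 10.01 to 11.81 in WT and 10.62 to 11.99 in Lxn-/-. Per1 had r = 0.83 with them (exact p = 0.0361, adjusted over 10 lists p = 0.181, rho 0.89, exact p = 0.0333), and 0.90 without the 2 farthest pools. Erythroid markers (9 measured) deviated by -0.05, 0.06 and 0.39 in WT and by -0.19, 0.15 and -0.36 in Lxn-/-, with mean levels of 9.89 to 10.33 and 9.58 to 10.10. With these Per1 had r = -0.89 (exact p = 0.0181, adjusted p = 0.181, rho -0.94, exact p = 0.0167), and -0.50 without the 2 farthest pools. The other 8 lists, which cover LT-HSC, lymphoid, mast cell and macrophage markers and the glucocorticoid and hypoxia genes, had r between -0.73 and 0.45 with Per1, with adjusted p-values from 0.31 to 0.993 in the exact permutation test. No list passed an adjusted p of 0.05 in this family, and the part of neutrophil and erythroid cells in the Per1 values was not tested.

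Beside Bhlhe41, which is also expressed in some B cells, all 10 B cell markers measured had lower means in the Lxn-/- pools (median difference -0.38), as had all 8 plasma cell markers (median -0.58), and 0 of either passed an adjusted p of 0.05 in limma. At an unadjusted p under 0.05 there were 4 B cell and 8 plasma cell markers, all lower, where 2.43% of all probe sets were under it and lower. The mean level of the B cell markers was 9.71 to 10.35 in WT and 9.56 to 9.80 in Lxn-/-, and that of the plasma cell markers 10.55 to 11.04 and 10.14 to 10.26. The plasma cell markers were highest in WT replicate 1, as Bhlhe41 was, with deviations of 0.56, 0.06 and 0.23 in WT and -0.28, -0.22 and -0.34 in Lxn-/-. The B cell markers were highest in WT replicate 3, unlike Bhlhe41, with 0.24, -0.15 and 0.50 in WT and -0.24, -0.05 and -0.29 in Lxn-/-. No marker of either list was at or below the dim signal level, and their part in the Bhlhe41 values was not tested.

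The genes whose pattern over the 6 pools was most like that of Bhlhe40 were Pigm (r = 0.994), Mir142 (0.987), Ccl25 (0.984), Atg12 (0.974) and Stat2 (0.969). Mir142, the locus of a microRNA of blood cells, had 10.71, 10.48 and 10.47 in WT and 10.90, 11.04 and 10.84 in Lxn-/-. Its groups did not overlap, as was so for 8.98% of all probe sets. A close match to Bhlhe40, chosen for its genotype difference, carries such a separation along, so nothing is read from it. Pigm, an enzyme gene of glycolipid anchor synthesis, had 10.21, 10.00 and 9.97 in WT and 10.28, 10.33 and 10.23 in Lxn-/-. For Arntl the most alike were Vapa (0.985), Rep15 (0.976) and Dcaf13 (0.972), and for Nr1d1 they were Trappc2 (0.985), Tshz2 (0.982) and Hif1a (0.98). These are descriptions over 6 arrays that share their normalization, with 13348 genes compared. The number of genes with r over 0.9 was 86 for Bhlhe40, 40 for Arntl, 67 for Nr1d1, 265 for Per1 and 325 for Per2.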

How the data were processed

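LT-HSC RNA of 3 WT and 3 Lxn-/- pools was measured on 1 array each. The authors deposited log2 values after RMA, per the design text; the submitters' processing notes list Partek 6.0 as well. No source used here gives the background step or probe set version. Array medians ran from 7.77 to 7.91. GEO's platform annotation named 23410 of 35557 probe sets, and 1621 of these have several symbols and named no gene. All 23410 were fitted with limma 3.58.1 in R 4.3.3 (lmFit, eBayes, genotype alone, two-sided, Benjamini-Hochberg, threshold 0.05), tested on simulated data. Differences are Lxn-/- minus WT. Correlations used exact two-sided permutation over all pairings of 6 pools. The number of arrays limits the precision: 3 against 3 cannot give an exact p below 0.1. The p-values of limma set a difference against the spread between pools, moderated over all probe sets fitted. The clock genes, lists and pairs were chosen with earlier results of these data known. Named were all 10 genes, 8 fixed genes of the wider list and any others of unadjusted p under 0.05, 2 genes of lowest p per stimulus list, and the genes most correlated with Bhlhe40 (5), Arntl (3) and Nr1d1 (3) among those above the dim signal level without predicted names; Gsk3b, Lonrf3, Wee1 and the immediate early and marker genes quoted for other reasons fall outside this rule. Alternatives were quantile normalization, a common median, array weights, a dim probe set filter, the mean of a gene's probe sets, eBayes with trend, a replicate block and single arrays left out.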

Additional observations from a re-analysis of the deposited data

How the results depend on the processing

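The count of probe sets passing in limma stayed at 0 under every alternative run, with lowest adjusted p-values from 0.134 (without WT replicate 2) to 1, and so did that of the wider clock list, where 0 to 2 genes had an unadjusted p under 0.05 (1 with the replicate block). Of all 23410 probe sets, 611 (without Lxn-/- replicate 1) to 1807 (array weights) were under it, and 526 of 16324 with the dim probe set filter. Between 5 and 7 of the 10 clock genes were higher in Lxn-/-, 5 without Lxn-/- replicate 2 and 7 with array weights. Bhlhe40 ranged from 0.39 (without WT replicate 3) to 0.60 (without WT replicate 1), Per1 from 0.24 to 0.61 under the same omissions, and Bhlhe41 from -0.56 (without WT replicate 2) to -0.22 (without WT replicate 1), or -0.30 with array weights. Of 204 differences followed (17 genes under 12 alternatives), 6 changed sign: Arntl, Nr1d1 and Hlf (4 times). The causes were not tested. The r of Per1 with the immediate early genes, a relation examined after the values were seen, was 0.99 with quantile normalization and with a common median. The labels give both genotypes replicate numbers 1 to 3. Deviations of same-numbered pools correlated at 0.37, -0.07 and -0.08, so the numbers were not taken as pairs. With the replicate block 0 probe sets passed (lowest adjusted p 0.829), 1173 had an unadjusted p under 0.05 against 914, and 6 of the 10 clock genes were higher.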
